A study of Mus musculus with 9 samples.

Results

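Normal mammary fibroblasts that had shared a dish with 4T1-GFP carcinoma cells for 3 days were compared with the same kind of fibroblasts grown alone. The comparison was defined by the labels alone: 3 libraries of 3-day co-culture against 3 libraries of monoculture, 6 of the 9 libraries of the series, with every gene of the table. All cells came from mammary fat pads of 12-week-old BALB/c females, a wild-type inbred strain, and had rested for 1 week on collagen before the experiment. Carcinoma cells were seeded onto the fibroblasts 1 day after plating, and fibroblasts were then recovered by sorting for cells that lacked green fluorescent protein (GFP) and carried podoplanin, the glycoprotein encoded by Pdpn. 4T1 is an established BALB/c mammary carcinoma line, so the results concern 1 tumour line, in a dish rather than in a tumour. Immune or vascular cells are not named as part of the cultures, though some of their markers were counted, as given below. The monocultures were sampled after 5 days and the co-cultures compared here after 3. No monoculture of 3 days was analysed here, so the effect of carcinoma cells and the effect of days in culture cannot be told apart. The remaining group, co-culture for 5 days, was used to ask where 3-day levels differed from later ones.

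Fibroblasts make and remodel the matrix of the mammary fat pad, and they answer signals from neighbouring epithelium. Next to carcinoma cells they can take on an inflammatory program, rich in cytokines and chemokines, or a contractile program driven by transforming growth factor beta. Interferon signalling acts through STAT and IRF transcription factors on antiviral genes. ATF4 is the transcription factor that cells raise under amino acid shortage or endoplasmic reticulum stress.

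The libraries were 3′ end mRNA libraries, whose read numbers depend little on transcript length. Values are normalised counts as the authors deposited them. Reads per library, recovered from those values, ranged from 2623911 to 3567326 in monoculture and from 1048471 to 2579766 after 3 days of co-culture, so the co-cultures were shallower. Replicate 1 and replicate 3 of the 3-day co-culture stood at opposite ends of the third principal component (11.6% of the variance), with replicate 2 between them. Of 11931 genes, 10639 passed the filter on low values. Limma called 1132 higher (10.6%) and 997 lower (9.37%) in co-culture, with 0.05 as the threshold on the adjusted p. A fold of 4 or more was reached by 272 of the higher and 151 of the lower genes. The median log2 fold change over all tested genes was 0.00. The 2 groups did not overlap in 19.2% of tested genes with co-culture above and in 18.1% with co-culture below. With 3 libraries per group, groups that do not overlap are therefore common. Unless another test is named, log2 fold changes are co-culture for 3 days minus monoculture, with the standard error (SE), and p is adjusted over all 10639 genes. Library values are given in the order of replicates 1, 2 and 3.

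**Figure D1:**
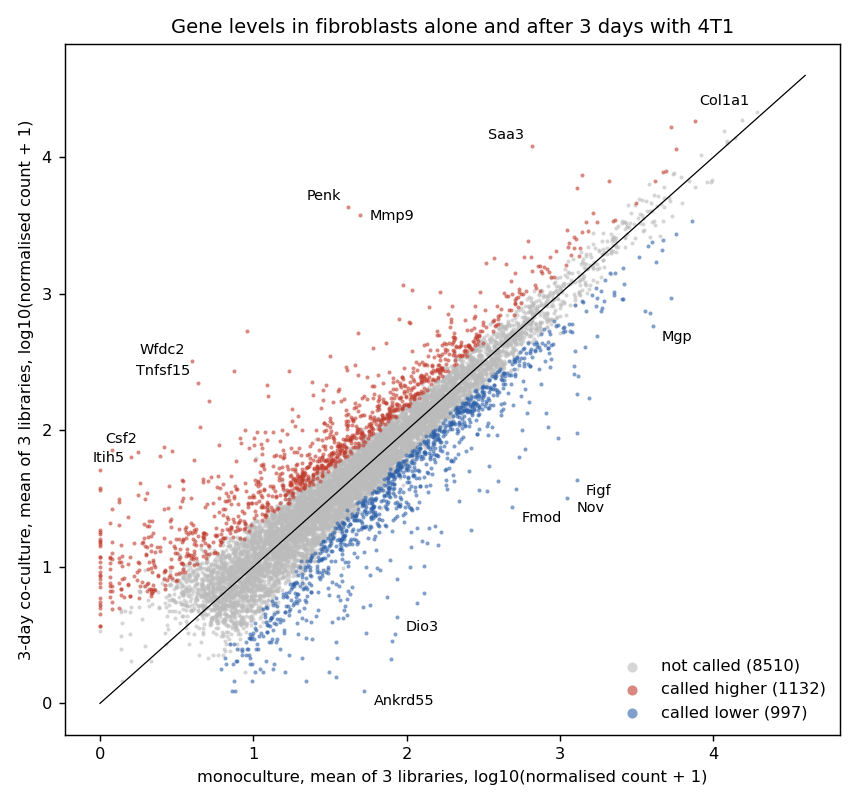
Mean normalised count of each of the 10639 tested genes in 3 monoculture libraries (x axis) and 3 libraries of 3-day co-culture (y axis), as log10(value + 1). Red points are the 1132 genes called higher, blue points the 997 called lower, grey points the rest, and the labelled genes are examples described in the text, with Mmp9, Penk and Saa3 at the upper left of the cloud and Nov, Figf and Mgp at the lower right.

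The sorted cells carried the transcripts of fibroblasts in both groups. Col1a1, which encodes a chain of type I collagen, had 15544, 24211 and 17904 alone and 18081, 20107 and 26146 in co-culture, a difference of 0.17 (95% interval -0.37 to 0.70, adjusted p = 0.69). Vim, encoding the mesenchymal intermediate filament vimentin, had 5299.7, 4859 and 5497 alone and 4900.4, 4555 and 4954 in co-culture, and Fn1, encoding fibronectin, had 7923, 7617 and 7405 alone and 6332, 5105 and 6757 in co-culture. None of the 3 passed the test, and the groups overlapped for Col1a1 and Vim. Pdpn, the gene of the sort antigen, had 211.0, 197.1 and 236.5 alone and 265.7, 388.4 and 229.6 in co-culture, also without passing (adjusted p = 0.19). Of the 12 fibroblast markers, 5 fell and 0 rose. Pdgfra, the receptor used to recognise resting stromal fibroblasts, fell from 126.9, 234.6 and 206.3 to 46.5, 47.3 and 61.2 (log2 fold change -1.82 ± 0.25, adjusted p = 8.7e-05), and its sister receptor Pdgfrb fell from 1004, 847.4 and 781.5 to 355.4, 373.8 and 258.8 (log2 fold change -1.42 ± 0.19, adjusted p = 8.1e-05). Neither receptor's groups overlapped, with co-culture below, as in 18.1% of all tested genes. In bulk libraries, fewer cells of a type and less RNA per cell cannot be told apart.

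Transcripts of luminal epithelium and carcinoma cells were higher in all 3 co-culture libraries. Of 22 listed markers, 17 were tested, of which 14 rose and 0 fell, and 12 of the 17 averaged under 5 in monoculture, so they passed the filter through the co-cultures. The normalised counts of the markers analysed summed to 70.4, 96.1 and 118.7 alone, against 1271.9, 1214.2 and 1377.4 beside 4T1. Wfdc2, a secreted protein of glandular epithelium, had 1.2, 7.2 and 0.6 alone and 352.0, 233.9 and 374.3 in co-culture (log2 fold change 6.68, or 7.39 without monoculture replicate 2). Krt7 had 3.1, 6.7 and 2.6 alone and 176.0, 129.5 and 186.4 in co-culture and Krt18 13.6, 20.2 and 48.8 alone and 187.6, 178.2 and 226.8 in co-culture, both encoding keratins of simple epithelium. Epcam, the epithelial adhesion molecule, had 1 read in the monocultures and 54 in the co-cultures, and the tight junction gene Cldn3 had 0 reads against 43, which is at least 27.3-fold higher when 3 reads over the group are taken as the floor. The transcription factor genes Elf3 and Grhl2 were also at 0 in every monoculture library. Epcam, Cldn3, Elf3 and Grhl2 are outside the rule for named genes and were chosen after their values were seen. The part of these transcripts in other rises was not tested.

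Of 9 basal and myoepithelial markers 3 were tested and 2 rose, the keratin gene Krt14 by 3.50 (2.89 without monoculture replicate 1) and Sfn by 3.24 on the log2 scale, both averaging under 5 alone, and the third, Acta2, did not pass. The summed values of the basal markers analysed were 97.2, 86.5 and 86.1 alone and 132.8, 82.2 and 133.5 beside 4T1. Of the 15 macrophage markers, 8 were tested and 1 rose, a call that was lost without any 1 library other than monoculture replicate 2 (then 2 rose) and also with all libraries under 6 of the other alternatives, with sums of 108.3, 295.7 and 100.2 alone and 132.9, 387.1 and 270.0 beside 4T1. The myeloid lysozyme gene Lyz2 had 55.1, 184.6 and 34.1 alone and 61.4, 231.8 and 150.3 in co-culture, was highest in replicate 2 of both groups, and did not pass the test unless monoculture replicate 2 was left out. Of 8 neutrophil markers 1 was tested and rose, Camp, from 3.7, 7.7 and 7.1 to 13.3, 18.1 and 52.9, a call lost without co-culture replicate 3. Of 10 lymphocyte markers, 0 were among the genes analysed. Of 11 endothelial markers 4 were tested and 1, Esam, rose from 3.1, 0 and 2.6 to 28.2, 9.0 and 18.1 (log2 fold change 2.85, or 2.21 without monoculture replicate 2). Of 9 pericyte and smooth muscle markers 5 were tested and 2 rose. Cspg4, which encodes the NG2 proteoglycan, rose from 14.9, 5.3 and 10.3 to 89.7, 68.9 and 75.1 (log2 fold change 2.91 ± 0.30, adjusted p = 6.0e-06), and Des, encoding desmin, rose from 26.6, 10.6 and 25.1 to 71.4, 38.3 and 29.2, a call lost without monoculture replicate 2 or co-culture replicate 1 or 2. Notch3, on the same list, had 63.1, 35.1 and 61.7 alone and 59.8, 61.3 and 64.0 in co-culture and did not pass. The part of these cells' transcripts in other rises was not tested.

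The 15 largest rises included Penk, Mmp9 and Csf2. Penk, which encodes the precursor of the enkephalin opioid peptides, had 39.0, 44.7 and 38.6 alone and 2637, 4333 and 6027 in co-culture (log2 fold change 6.62 ± 0.31, adjusted p = 1.3e-09). Mmp9, encoding the protease gelatinase B, had 44.6, 45.7 and 56.6 alone and 3374, 4221 and 3801 in co-culture (log2 fold change 6.25 ± 0.17, adjusted p = 7.9e-13). For both genes every co-culture library lay far above every monoculture library, and groups that do not overlap were a condition for these 15. Csf2, encoding the granulocyte-macrophage colony-stimulating factor, had 0, 0 and 0.6 alone and 112.9, 34.1 and 65.4 in co-culture, that is 1 read against 164, a ratio of 312 with an exact 95% counting interval of 55.3 to 12412. Itih5, which encodes a heavy chain that is attached to hyaluronan, had 0 reads alone and 145 beside 4T1, so it was at least 92.1-fold higher by the 3-read floor. Gpa33, encoding a cell-surface antigen of intestinal epithelium, had 0 reads against 105, at least 66.7-fold higher. Tnfsf15, a cytokine gene of the tumour necrosis factor family, had 5.0, 2.4 and 2.6 alone and 191.0, 174.0 and 301.9 in co-culture. Stra6, the membrane receptor for retinol-binding protein, had 1.2, 0 and 0.6 alone and 78.0, 67.5 and 41.7 in co-culture. The 15 also held Abcb1a, which encodes a drug efflux pump and had 1.9, 1.9 and 0.6 alone and 66.4, 50.8 and 75.1 in co-culture, and Acsbg1, an acyl-CoA synthetase gene, with 1.2, 0.5 and 3.2 alone and 81.4, 57.1 and 86.3 in co-culture. Lce1h, a cornified envelope gene, had 6.8, 1.9 and 15.4 alone and 720.7, 395.4 and 474.4 in co-culture and a log2 fold change of 6.16, between 5.51 without monoculture replicate 2 and 6.76 without monoculture replicate 3. The remaining 5 of the 15 were Wfdc2, Cldn4, Lcn2, Krt7 and Il1a. Of those, Wfdc2, Cldn4, Lcn2 and Krt7 are on the epithelial marker list.

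The 15 largest falls included Figf, Nov and Dio3. Figf, the older symbol of the vascular endothelial growth factor D gene, had 938.3, 1770.3 and 1165 alone and 46.5, 39.7 and 40.3 in co-culture (log2 fold change -4.86 ± 0.23, adjusted p = 1.3e-09). Nov, the older symbol of a gene of the CCN matricellular family, had 904.8, 1623 and 823.3 alone and 59.8, 16.7 and 16.7 in co-culture, a log2 change of -5.32 that became -5.91 without co-culture replicate 1. For both genes every co-culture library lay far below the lowest monoculture library, and groups that do not overlap were a condition for these 15. Dio3, which encodes the deiodinase that inactivates thyroid hormone, had 95.3, 81.2 and 79.1 alone and 5.0, 3.5 and 1.4 in co-culture (log2 fold change -4.42 ± 0.42, adjusted p = 2.5e-06). Id4, an inhibitor of helix-loop-helix transcription factors, had 112.0, 175.9 and 96.4 alone and 5.0, 4.2 and 7.0 in co-culture. Fmod, which encodes the collagen-binding proteoglycan fibromodulin, had 433.2, 481.2 and 547.0 alone and 31.6, 33.4 and 13.9 in co-culture. Ankrd55 had 58.2, 73.1 and 25.1 alone and 0, 0.7 and 0 in co-culture, Calca, the gene of calcitonin and its related peptide, 13.6, 62.5 and 25.1 alone and 1.7, 0 and 0 in co-culture, and Kng2, a kininogen gene, 32.8, 41.3 and 16.1 alone and 0, 2.1 and 0 in co-culture. For these genes nearly all counts lay in the monocultures. The Wnt antagonist gene Sfrp4 had 22.9, 26.4 and 13.5 alone and 0, 1.4 and 0 in co-culture. The size of several further falls rested in part on single libraries. Smoc2, a basement membrane protein gene, had a log2 fold change of -4.86, between -3.90 without co-culture replicate 3 and -5.51 without co-culture replicate 1. Gfra1, a receptor for glial cell line-derived neurotrophic factor, had -4.36, or -5.08 without co-culture replicate 2, and Cyp2f2, a cytochrome P450 gene, had -4.85, or -4.25 without co-culture replicate 1. Ptn, encoding the growth factor pleiotrophin, had 195.6, 16.3 and 35.3 alone and 1.7, 2.1 and 2.8 in co-culture and a log2 fold change of -3.97, between -2.98 without monoculture replicate 1 and -4.74 without monoculture replicate 2. C4b and Mup5 complete the 15. Each has near-identical copies in the genome, so their counts are uncertain, and the value of Mup5 lay between -4.51 without monoculture replicate 2 and -5.93 without monoculture replicate 1 (-5.88 without co-culture replicate 1).

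Most listed antiviral effectors, genes stimulated by interferon, rose after 3 days beside carcinoma cells. Of 32 tested antiviral effectors, 25 rose and 3 fell, against 10.6% and 9.37% of all genes, with a median log2 fold change of 1.68. Of the 32, 8 averaged under 5 in monoculture. The summed values of the 37 effectors analysed were 3500.4, 3657.2 and 3356.1 alone and 5265.7, 5879.8 and 5665.3 in co-culture. All 4 tested genes of ISG15 conjugation rose, as did 5 of 8 interferon-induced GTPases and 7 of 20 sensors, STATs and interferon regulatory factors, and none of these 3 groups had a member that fell, except 1 sensor or factor without co-culture replicate 2. Of the tested genes, 1 of ISG15 conjugation, 2 GTPases and 1 sensor or factor averaged under 5 in monoculture. The promoters of leading genes are shown because most of the tested effectors rose. RefSeq promoters (GRCm38.p6, the build named mm10), from 250 bases before to 50 after the gene's start, were found by symbol for 8122 of the 10639 tested genes. They were searched on both strands for the interferon-stimulated response element, written as GAAANNGAAA, and matches are in capitals. The 3 called antiviral genes with the smallest adjusted p and a promoter were Bst2 (chr8:71537423-71537722, minus strand), Ifi44 (chr3:151749861-151750160, minus strand) and Oasl2 (chr5:114896684-114896983, plus strand), each written 5′ to 3′ on the gene's strand.
Bst2: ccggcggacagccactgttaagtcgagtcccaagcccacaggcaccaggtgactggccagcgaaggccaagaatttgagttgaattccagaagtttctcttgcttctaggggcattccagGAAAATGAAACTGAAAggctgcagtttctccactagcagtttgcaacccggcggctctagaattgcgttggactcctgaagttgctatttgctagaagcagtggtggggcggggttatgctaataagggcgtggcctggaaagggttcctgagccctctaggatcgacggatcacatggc
Ifi44: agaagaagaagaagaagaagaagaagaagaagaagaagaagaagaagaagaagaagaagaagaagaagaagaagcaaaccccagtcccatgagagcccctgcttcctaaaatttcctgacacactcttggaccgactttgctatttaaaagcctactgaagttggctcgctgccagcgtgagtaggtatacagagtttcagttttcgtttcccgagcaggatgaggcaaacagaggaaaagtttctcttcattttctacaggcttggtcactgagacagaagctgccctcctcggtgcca
Oasl2: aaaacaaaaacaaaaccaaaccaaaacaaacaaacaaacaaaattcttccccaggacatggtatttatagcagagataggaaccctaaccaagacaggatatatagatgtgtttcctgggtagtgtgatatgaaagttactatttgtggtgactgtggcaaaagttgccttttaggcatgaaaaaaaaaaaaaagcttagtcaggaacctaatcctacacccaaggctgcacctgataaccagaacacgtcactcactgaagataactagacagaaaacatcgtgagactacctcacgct
The Bst2 promoter held 2 overlapping matches, at -130 and -124 from the start, and the letters were not in the windows of Ifi44 and Oasl2. Among all 27025 genes with a promoter, 3.99% held the letters on either strand. They were in 9 of the 19 antiviral genes that rose and had a promoter, in 3 of the 5 that did not rise, in 5 of the 5 interferon-induced GTPases that rose, in 1 of the 2 GTPases that did not and in 1 of the 3 ISG15 conjugation genes that rose. A match describes the letters in the window and is not a measured binding site.

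Among sensors and transcription factors, Irf7, the factor that amplifies type I interferon, had 29.7, 26.9 and 35.3 alone and 380.3, 382.9 and 293.6 in co-culture (log2 fold change 3.48 ± 0.19, adjusted p = 7.1e-09). Irf9 and Stat2, partners in the complex that binds the response element, had 51.4, 52.9 and 39.2 alone and 167.7, 133.7 and 154.4 in co-culture and 82.3, 55.8 and 57.2 alone and 151.1, 224.2 and 129.4 in co-culture, with log2 fold changes of 1.65 and 1.34. Zbp1, a sensor of left-handed nucleic acid, had 32.2, 35.6 and 18.0 alone and 189.3, 247.8 and 203.1 in co-culture (log2 fold change 2.90 ± 0.25, adjusted p = 9.4e-07), and the RNA sensor gene Ddx58 had 10.5, 5.8 and 10.3 alone and 31.6, 28.5 and 34.8 in co-culture. In each of these 5 genes every co-culture library was above every monoculture library, as in 19.2% of all tested genes. Among effectors, Bst2, whose product tethers budding virus to the cell, had 116.4, 108.2 and 84.2 alone and 709.1, 645.3 and 492.5 in co-culture (log2 fold change 2.57 ± 0.19, adjusted p = 1.2e-07). Ifi44 had 1.2, 4.8 and 4.5 alone and 89.7, 69.6 and 153.0 in co-culture and Oasl2, of the oligoadenylate synthetase family, 13.6, 7.7 and 5.8 alone and 74.7, 84.9 and 71.0 in co-culture. Oas3, of the same family, had 0 reads alone and 42 beside 4T1, so it was at least 26.7-fold higher. Ifit1, which binds foreign RNA caps, had 11.8, 7.7 and 5.8 alone and 69.7, 68.9 and 79.3 in co-culture, and Rtp4 had 10.5, 15.4 and 7.1 alone and 89.7, 78.7 and 118.3 in co-culture. The groups were far apart for each of these effectors.

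Isg15, the ubiquitin-like protein of the antiviral response, had 108.9, 88.9 and 83.6 alone and 1267, 1093 and 1134 in co-culture (log2 fold change 3.63 ± 0.20, adjusted p = 7.6e-09). Usp18, the protease that removes it and restrains the receptor, had 3.7, 4.8 and 6.4 alone and 86.4, 84.2 and 59.8 in co-culture (log2 fold change 3.71 ± 0.26, adjusted p = 9.6e-08), and the activating enzyme gene Uba7 had 30.9, 20.7 and 20.6 alone and 53.1, 48.7 and 51.5 in co-culture. Ube2l6, the conjugating enzyme gene, completed the 4, but its call was lost without monoculture replicate 2 or 3 and without co-culture replicate 1 or 3. The guanylate-binding protein genes Gbp3 and Gbp2 had 8.7, 4.8 and 6.4 alone and 24.9, 45.9 and 44.5 in co-culture and 14.2, 19.2 and 7.7 alone and 34.9, 36.2 and 55.7 in co-culture. The immunity-related GTPase genes Igtp, Irgm1 and Irgm2 rose by log2 fold changes of 1.85, 1.34 and 1.57. In antigen presentation 8 of 16 tested genes of the class I pathway and the immunoproteasome rose and 0 fell, with a median of 0.55. B2m, the invariant light chain, had 1234, 1698 and 1251 alone and 2836, 2843 and 2895 in co-culture (log2 fold change 1.05 ± 0.18, adjusted p = 0.00049), and Psmb8, an immunoproteasome subunit, 47.7, 40.9 and 43.1 alone and 107.9, 142.0 and 103.0 in co-culture. H2-D1 and H2-K1 rose by 1.53 and 1.37, with counts that are uncertain because these genes have near-identical copies that differ between strains. Some of these genes were lower at 5 than at 3 days of co-culture. Of the 20 sensors and factors 2 were lower at 5 days (1 without co-culture replicate 2 or 3 at 3 days or replicate 1 or 3 at 5 days), and 0 of the ISG15 and GTPase genes were called, where 3.71% of all genes were lower. Of 16 class I and immunoproteasome genes 2 were lower, or 1 without replicate 1 or 2 at 3 days or replicate 2 or 3 at 5 days, and of 32 antiviral effectors 1 was lower, or 0 without replicate 1 or 2 at 3 days or replicate 2 at 5 days. A single higher call appeared among the effectors without replicate 2 at 3 days and among the sensors without replicate 3 at 5 days. Zbp1 was one of the 2, at -1.43 ± 0.25, adjusted p = 0.003 for 5 minus 3 days.

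**Figure D2:**
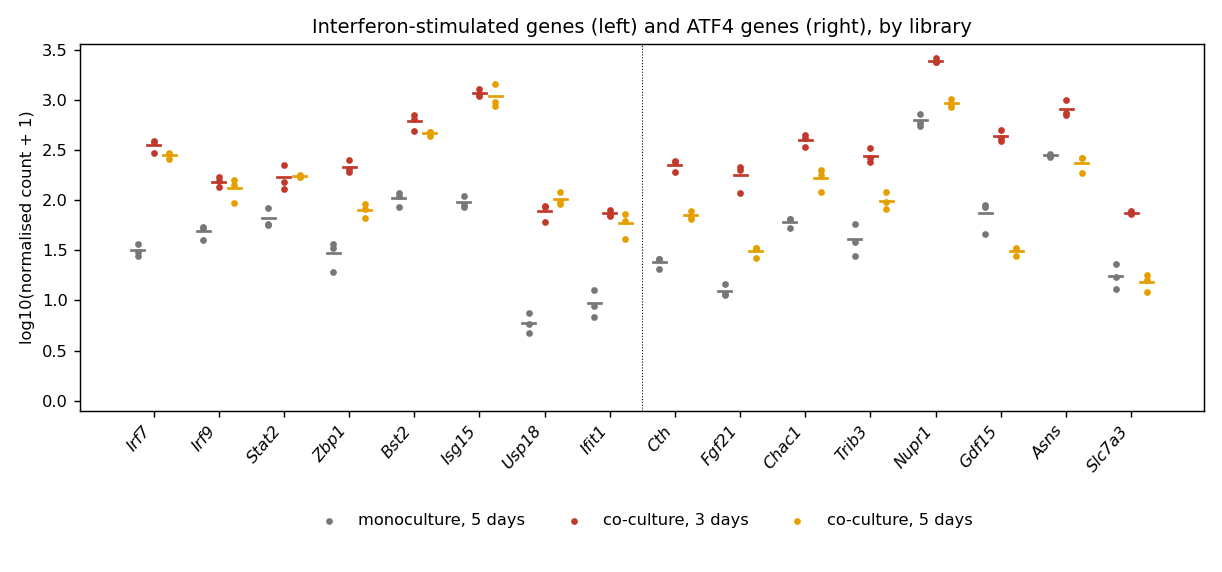
Normalised counts (log10 axis of value + 1) of 8 interferon-stimulated genes and 8 genes of the ATF4 program in each library, with 3 points per group and a bar at each group's mean: monoculture in grey, 3-day co-culture in red and 5-day co-culture in orange. Isg15 lies between 83.6 and 108.9 in monoculture and between 1093 and 1267 at 3 days, and the ATF4 genes are lower at 5 than at 3 days.

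Genes of inflammatory signals rose more often than they fell. Of 17 tested chemokines 8 rose and 4 fell, and of 17 interleukins and colony-stimulating factors 9 rose and 2 fell. Over all genes 10.6% rose and 9.37% fell. Of the tested members, 2 chemokines and 3 interleukins or colony-stimulating factors averaged under 5 in monoculture, so they passed the filter through the co-cultures. Il1a, the alarm cytokine interleukin 1 alpha, had 0 in each library alone and 23.2, 39.0 and 47.3 in co-culture. Lif and Il11, cytokines of the interleukin 6 family, had 258.7, 315.3 and 406.2 alone and 1536, 1924 and 1624 in co-culture (log2 fold change 2.39 ± 0.22, adjusted p = 1.9e-06) and 44.6, 63.4 and 212.1 alone and 752.3, 953.0 and 1465 in co-culture (log2 fold change 3.57, or 4.23 without monoculture replicate 3). Tslp, an epithelial-type alarm cytokine, had 22.3, 29.3 and 54.6 alone and 132.8, 194.2 and 275.5 in co-culture, and Csf3, the granulocyte growth factor gene, 0.6, 1.4 and 1.3 alone and 28.2, 14.6 and 13.9 in co-culture. The neutrophil-attracting chemokine genes Cxcl2 and Cxcl3 had 26.0, 40.9 and 50.8 alone and 176.0, 300.7 and 399.3 in co-culture and 3.1, 7.7 and 10.9 alone and 56.5, 72.4 and 132.2 in co-culture. Ccl5 and Cxcl10, which attract T cells and are induced by interferon, had 3.1, 0.5 and 3.9 alone and 41.5, 39.0 and 44.5 in co-culture and 4.3, 3.8 and 10.3 alone and 44.8, 62.7 and 27.8 in co-culture. Cxcl16 had 26.6, 37.5 and 27.6 alone and 127.9, 107.9 and 128.0 in co-culture. Cxcl12, the chemokine of stromal niches, went the other way, from 1327, 1809 and 734.0 to 71.4, 92.6 and 119.6 (log2 fold change -3.69 ± 0.28, adjusted p = 2.0e-07). The co-culture libraries of these genes are the ones with 1214.2 to 1377.4 units of luminal markers, whose part in the rises was not tested.

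Cytokine receptor genes fell more often than they rose. Of 26 tested cytokine receptors and JAK-STAT feedback genes, 11 fell and 4 rose, and 2 rose without monoculture replicate 2. Il6st, the shared receptor chain of the interleukin 6 family, had 709.9, 738.3 and 432.6 alone and 171.0, 160.1 and 146.1 in co-culture (log2 fold change -1.94 ± 0.20, adjusted p = 6.6e-06). Il1r1, the interleukin 1 receptor, had 165.9, 179.8 and 196.7 alone and 41.5, 62.0 and 48.7 in co-culture, and Il17ra 415.3, 383.6 and 210.2 alone and 119.6, 115.6 and 100.2 in co-culture. Stat3, the transcription factor downstream of Il6st, had 297.1, 287.4 and 287.3 alone and 142.8, 159.4 and 115.5 in co-culture. Socs3, its feedback inhibitor, had 362.1, 382.1 and 332.3 alone and 76.4, 153.8 and 83.5 in co-culture (log2 fold change -1.84 ± 0.23, adjusted p = 4.1e-05). In each of these 5 genes the groups did not overlap, with co-culture below, as in 18.1% of all tested genes. Of 19 NF-kappa B subunits and feedback genes, 9 rose and 1 fell, with a median of 0.50. The subunit genes Nfkb1 and Nfkb2 had 65.0, 55.3 and 68.8 alone and 129.5, 102.3 and 186.4 in co-culture and 115.1, 78.8 and 137.5 alone and 229.2, 178.2 and 208.7 in co-culture, and the feedback inhibitors Tnfaip3, Tnip1 and Nfkbie rose by 1.74, 1.16 and 1.07. Map3k14, the kinase of the alternative pathway, fell from 39.0, 42.8 and 30.9 to 14.9, 17.4 and 15.3. The receptor gene Cd40 had 7.4, 7.2 and 9.0 alone and 114.6, 83.5 and 103.0 in co-culture (log2 fold change 3.51 ± 0.25, adjusted p = 9.6e-08), whereas Ltbr, the lymphotoxin receptor, had 761.9, 649.4 and 640.8 alone and 400.2, 385.7 and 364.5 in co-culture. In the tumour necrosis factor superfamily as a whole 7 of 19 rose and 5 fell, which became 4 and 3 without monoculture replicate 2 and left 3 lower without co-culture replicate 2.

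Complement and acute-phase genes fell more often than they rose. Of 18 tested, 9 fell and 2 rose, with a median of -0.83. Lbp, the lipopolysaccharide-binding protein, had 319.4, 462.9 and 215.3 alone and 29.9, 34.1 and 41.7 in co-culture (log2 fold change -3.15 ± 0.31, adjusted p = 3.1e-06), Serping1, the inhibitor of the first complement component, 1795, 2308 and 1459 alone and 612.8, 926.5 and 715.1 in co-culture, and C1ra, a protease of that component, 113.9, 101.9 and 79.1 alone and 14.9, 23.7 and 48.7 in co-culture. The acute-phase gene Saa3, in contrast, had 533.5, 1061 and 362.5 alone and 5638, 16452 and 14318 in co-culture (log2 fold change 4.22 ± 0.46, adjusted p = 1.0e-05), and Lcn2, encoding an iron-carrier-binding protein that is also an epithelial marker, 8.0, 2.9 and 8.4 alone and 222.5, 336.9 and 247.6 in co-culture. Ptgs2, which encodes the inducible cyclooxygenase, had 284.7, 342.7 and 491.0 alone and 1911, 1346 and 2246 in co-culture (log2 fold change 2.30 ± 0.28, adjusted p = 3.0e-05). Saa3 varied widely within both groups, but the groups did not overlap, with co-culture above, as in 19.2% of all tested genes.

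**Figure D3:**
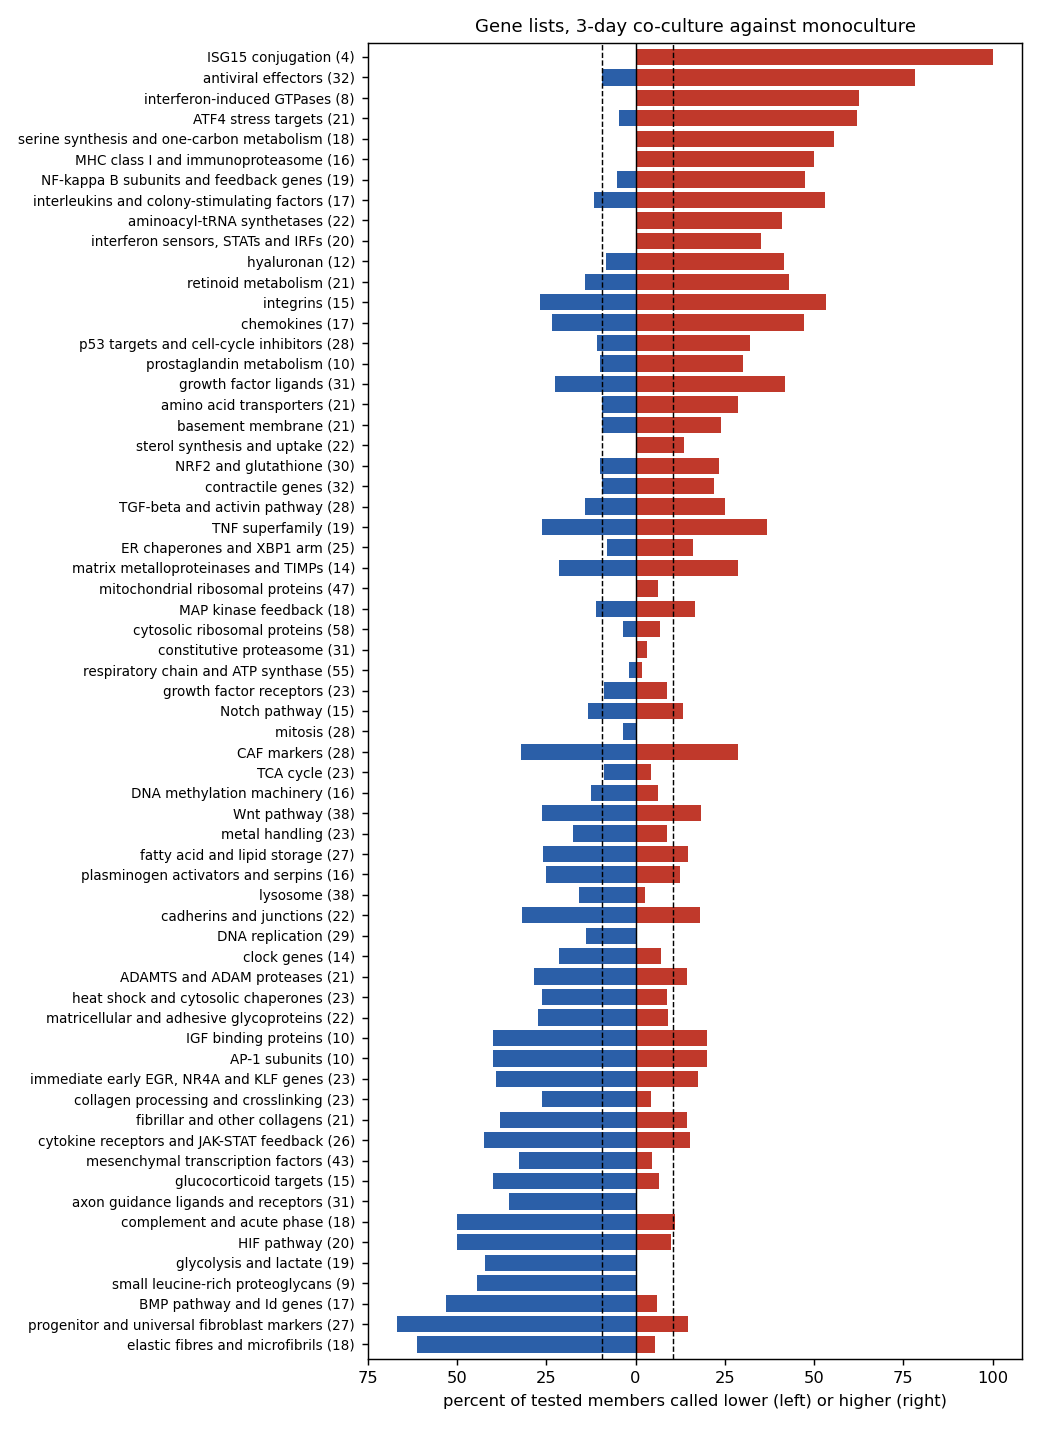
Percent of tested members called higher (red, to the right) and lower (blue, to the left) in 3-day co-culture for all 64 gene lists, with the number of tested members after each name. Dashed lines mark the background over all 10639 genes, 10.6% higher and 9.37% lower, and the lists of antiviral effectors, ISG15 conjugation and ATF4 stress targets extend to the right while progenitor markers and elastic fibres extend to the left.

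Most targets of ATF4 rose as well. Of 21 tested ATF4 stress targets 13 rose and 1 fell, with a median log2 fold change of 1.28, and the single fall was lost without monoculture replicate 1 or 2 or co-culture replicate 1, with 2 lower without monoculture replicate 3. Cth, the enzyme gene that makes cysteine by transsulfuration, had 24.8, 19.7 and 25.1 alone and 191.0, 244.3 and 236.5 in co-culture (log2 fold change 3.22 ± 0.21, adjusted p = 3.4e-08). Fgf21, a stress hormone of the fibroblast growth factor family, had 10.5, 13.5 and 10.3 alone and 197.6, 213.7 and 116.9 in co-culture (log2 fold change 3.79 ± 0.27, adjusted p = 9.6e-08). Chac1, which breaks down glutathione, had 63.7, 51.4 and 63.6 alone and 418.5, 442.7 and 333.9 in co-culture, Trib3, a pseudokinase that feeds back on ATF4, 56.3, 37.5 and 26.4 alone and 260.7, 328.6 and 237.9 in co-culture, and Nupr1, a stress-induced nuclear protein, 724.7, 551.3 and 586.2 alone and 2355, 2391 and 2621 in co-culture. Gdf15, a stress cytokine, had 89.1, 45.2 and 84.2 alone and 501.5, 385.7 and 418.8 in co-culture (log2 fold change 2.62 ± 0.24, adjusted p = 1.9e-06). In all 6 genes every co-culture library lay far above every monoculture library. The groups were separated with co-culture above in 19.2% of all tested genes. The promoters of the 3 called genes with the smallest adjusted p and a promoter are shown for the ATF4 element, searched on both strands as TGATGNAA, with matches in capitals. They are Fgf21 (chr7:45615441-45615740, minus strand), Chac1 (chr2:119350992-119351291, plus strand) and Nupr1 (chr7:126625421-126625720, minus strand).
Fgf21: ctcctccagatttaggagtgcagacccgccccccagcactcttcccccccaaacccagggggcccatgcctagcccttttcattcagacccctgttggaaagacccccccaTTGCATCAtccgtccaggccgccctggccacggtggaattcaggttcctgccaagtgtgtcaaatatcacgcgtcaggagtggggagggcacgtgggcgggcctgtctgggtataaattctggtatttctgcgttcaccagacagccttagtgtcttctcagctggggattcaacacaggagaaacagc
Chac1: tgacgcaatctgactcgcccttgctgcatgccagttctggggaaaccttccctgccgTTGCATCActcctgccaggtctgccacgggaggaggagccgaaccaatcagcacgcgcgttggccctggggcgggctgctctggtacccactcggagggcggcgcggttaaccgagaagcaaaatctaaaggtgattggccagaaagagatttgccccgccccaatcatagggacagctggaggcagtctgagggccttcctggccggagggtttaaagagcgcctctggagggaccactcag
Nupr1: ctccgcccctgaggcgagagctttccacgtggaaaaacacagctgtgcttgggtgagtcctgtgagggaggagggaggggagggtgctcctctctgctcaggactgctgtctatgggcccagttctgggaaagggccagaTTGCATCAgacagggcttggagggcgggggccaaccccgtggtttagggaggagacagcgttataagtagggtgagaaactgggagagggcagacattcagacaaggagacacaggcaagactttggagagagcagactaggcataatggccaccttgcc
Each held 1 match on the opposite strand, beginning at -139, -193 and -110 from the start. The letters were in 4.51% of all genes with a promoter and in 2.68% of those tested. Of the 10 ATF4 targets that rose and had a promoter 5 held them, and of the 8 that did not rise 2 did. They were also in 2 of 8 serine and one-carbon genes that rose and 0 of 6 that did not, in 2 of 4 transporters that rose and 1 of 11 that did not, and in 3 of 5 tRNA synthetases that rose and 2 of 9 that did not.

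Genes of amino acid supply and charging rose more often than they fell. Of 18 tested genes of serine synthesis and one-carbon metabolism, 10 rose and 0 fell, with 6 higher without monoculture replicate 2 and 1 lower without monoculture replicate 3. Asns, the asparagine synthetase, had 276.7, 268.7 and 288.6 alone and 705.8, 990.6 and 742.9 in co-culture (log2 fold change 1.53 ± 0.19, adjusted p = 3.3e-05), Aldh1l2, a mitochondrial folate enzyme, 59.4, 59.6 and 62.3 alone and 161.1, 206.7 and 265.7 in co-culture, and Mthfd2, another, 238.3, 153.3 and 210.2 alone and 521.4, 531.8 and 403.5 in co-culture. Psph, the last step of serine synthesis, had 189.4, 156.7 and 219.2 alone and 383.6, 486.6 and 441.0 in co-culture. Of 21 amino acid transporters 6 rose and 2 fell, where 10.6% of all genes rose and 9.37% fell. The lower count was 1 without monoculture replicate 2. The cationic amino acid carriers Slc7a3 and Slc7a1 had 16.1, 12.0 and 21.9 alone and 76.4, 71.0 and 73.7 in co-culture and 48.9, 41.8 and 47.6 alone and 111.3, 103.7 and 104.3 in co-culture, and the glycine carrier Slc6a9 110.8, 83.2 and 75.2 alone and 284.0, 208.1 and 150.3 in co-culture. Slc38a2, a carrier of small neutral amino acids, fell from 506.3, 805.1 and 592.6 to 335.4, 272.9 and 276.9. Among 22 aminoacyl-tRNA synthetases 9 rose and 0 fell. Gars, for glycine, had 555.2, 451.4 and 509.7 alone and 1139, 1425 and 1719.6 in co-culture (log2 fold change 1.48 ± 0.21, adjusted p = 0.00011), and Cars, Wars, Lars, Yars and Mars, for cysteine, tryptophan, leucine, tyrosine and methionine, rose by 1.25, 1.31, 1.08, 1.03 and 0.97. Endoplasmic reticulum chaperones as a list were closer to the background: 4 of 25 rose and 2 fell, with a median of -0.14, and 2 rose without monoculture replicate 3 or co-culture replicate 3, while 1 fell without monoculture replicate 1 or 2 or co-culture replicate 2 or 3. Herpud1, a component of protein disposal from the reticulum, rose from 173.9, 165.4 and 160.0 to 320.5, 264.5 and 271.3, and Dnajc3, a co-chaperone there, fell from 121.9, 123.1 and 114.4 to 44.8, 34.1 and 51.5 (log2 fold change -1.46 ± 0.21, adjusted p = 0.00011).

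Most ATF4 targets were lower at 5 than at 3 days. When 5 days of co-culture were set against 3 days directly, 18 of the 21 ATF4 targets were lower at 5 days and 0 were higher, where 3.71% of all genes were lower and 3.20% higher, and 13 to 17 were lower when single libraries were left out. This comparison shares the 3-day libraries with the one against monoculture. Gdf15 had 31.4, 27.0 and 32.5 at 5 days, a change of -3.80 ± 0.24, adjusted p = 5.0e-07 for 5 minus 3 days. Fgf21 had 25.2, 32.6 and 32.5 (-2.47 ± 0.27, adjusted p = 8.6e-05), Asns 259.7, 258.9 and 183.5 (-1.79 ± 0.19, adjusted p = 8.0e-05) and Slc7a3 17.1, 14.9 and 11.2 (-2.30 ± 0.28, adjusted p = 0.00017). For these 4 genes, all called lower, every 5-day library lay below every 3-day library. The share of all tested genes separated in this way between 5 and 3 days was not counted. Of the serine and one-carbon genes 9 of 18 were lower at 5 days, and of the amino acid transporters 7 of 21.

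Heat shock and oxidative stress genes held calls in both directions. Among 23 cytosolic chaperones 6 fell and 2 rose, or 1 without co-culture replicate 2. Hspa4 had 131.8, 129.8 and 162.0 alone and 24.9, 41.1 and 50.1 in co-culture (log2 fold change -1.89 ± 0.25, adjusted p = 5.5e-05), Hspa1b, an inducible heat shock protein, 133.7, 100.9 and 131.8 alone and 34.9, 28.5 and 51.5 in co-culture, and its partner Bag3 364.5, 344.2 and 309.8 alone and 176.0, 174.0 and 164.2 in co-culture. NRF2 targets and glutathione genes were 7 higher and 3 lower of 30, with a median of 0.09. Nfe2l2, which encodes NRF2, had 100.3, 72.1 and 105.4 alone and 171.0, 214.4 and 346.4 in co-culture, Sqstm1, an autophagy receptor under its control, 1342, 1137 and 1228 alone and 2871, 2709 and 2262 in co-culture, and the peroxidase gene Prdx1 614.0, 493.7 and 635.7 alone and 969.8, 2083 and 2563 in co-culture. The extracellular antioxidant enzyme genes Gpx3 and Sod3 fell from 2896, 3067 and 1878 to 1425, 1243 and 897.4 and from 1652, 2123 and 1869.7 to 494.9, 1028 and 844.5.

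Immediate early genes, which cells switch on within minutes of a stimulus, were lower on balance in co-culture. Of 10 AP-1 subunits 4 fell and 2 rose. Fos had 1379.5, 1088 and 1256 alone and 337.1, 279.1 and 157.2 in co-culture (log2 fold change -2.33 ± 0.23, adjusted p = 3.6e-06), Fosb 373.2, 365.3 and 493.0 alone and 136.2, 149.7 and 97.4 in co-culture and Junb 1256, 1785 and 1379 alone and 827.0, 801.9 and 601.0 in co-culture. Jun and Fosl1 rose from 164.0, 175.4 and 253.9 to 352.0, 515.8 and 409.0 and from 145.4, 142.3 and 181.9 to 250.8, 258.3 and 335.3. Of 23 EGR, NR4A and KLF type genes 9 fell and 4 rose, and the 4 became 1 without monoculture replicate 1 and 2 without co-culture replicate 1. Zfp36, which encodes a protein that destabilises cytokine mRNA, had 479.0, 575.4 and 629.9 alone and 114.6, 102.3 and 83.5 in co-culture (log2 fold change -2.48 ± 0.22, adjusted p = 1.0e-06). Nr4a1, an orphan nuclear receptor, had 2875, 2534 and 2345 alone and 911.7, 1071 and 741.6 in co-culture, and Klf4 334.2, 360.0 and 338.7 alone and 141.2, 131.6 and 162.8 in co-culture. Atf3, a stress-induced member, rose from 18.6, 10.6 and 12.9 to 59.8, 57.1 and 73.7. Dusp1, the phosphatase that switches off stress kinases, had 956.8, 955.1 and 686.4 alone and 284.0, 330.0 and 263.0 in co-culture (log2 fold change -1.55 ± 0.20, adjusted p = 4.7e-05). Glucocorticoid targets were 6 lower and 1 higher of 15, and the clock gene Per1, on that list too, fell from 110.8, 106.2 and 124.0 to 54.8, 43.2 and 33.4.

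Glycolysis and hypoxia genes fell more often than they rose, and few genes of respiration, ribosomes or the proteasome were called. Of 19 tested glycolysis and lactate genes 8 fell and 0 rose, or 5 without co-culture replicate 3. Ldha, lactate dehydrogenase A, had 2236, 2401 and 2075 alone and 1076, 1062 and 941.9 in co-culture (log2 fold change -1.12 ± 0.16, adjusted p = 0.00013), the lactate exporter gene Slc16a3 754.4, 785.9 and 747.5 alone and 491.5, 445.5 and 360.3 in co-culture, and Pfkl, a phosphofructokinase, 246.3, 296.1 and 215.3 alone and 122.9, 128.8 and 108.5 in co-culture. Of 20 genes of the hypoxia pathway 10 fell and 2 rose, with 6 lower without monoculture replicate 2 and 1 higher without monoculture replicate 1 or 3 or co-culture replicate 2 or 3. Egln1, an oxygen sensor that is itself a hypoxia target, had 186.9, 235.5 and 154.9 alone and 46.5, 49.4 and 80.7 in co-culture (log2 fold change -1.72 ± 0.23, adjusted p = 8.1e-05), Ankrd37 27.2, 44.2 and 23.8 alone and 3.3, 4.2 and 1.4 in co-culture and Epas1, which encodes HIF2 alpha, 87.9, 119.2 and 66.2 alone and 23.2, 27.1 and 41.7 in co-culture. Vegfa, the endothelial growth factor, rose against its list from 707.4, 764.8 and 790.5 to 1901, 1284 and 1237. Several of these levels were higher at 5 than at 3 days of co-culture: for 5 minus 3 days Slc16a3 differed by 1.60 ± 0.17, adjusted p = 8.0e-05, Egln1 by 2.01 ± 0.23, adjusted p = 0.00015 and Ankrd37 by 2.18 ± 0.38, adjusted p = 0.0027. Of 55 respiratory chain and ATP synthase genes 1 was higher and 1 lower. The 1 higher became 4 without co-culture replicate 1 and 0 without any 1 of the other libraries, and the 1 lower became 0 without monoculture replicate 2 or 3 or co-culture replicate 3. Of 58 cytosolic ribosomal protein genes 4 were higher and 2 lower, and the 4 became 0 without monoculture replicate 2, co-culture replicate 2 or co-culture replicate 3, 1 without monoculture replicate 1 or 3, and 11 without co-culture replicate 1. Constitutive proteasome genes were 1 higher and 0 lower of 31, or 2 and 1 without co-culture replicate 1.

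Lipid genes were mixed. Fabp4, a fatty acid carrier and adipocyte marker, had 93.5, 145.2 and 138.8 alone and 5.0, 16.0 and 22.3 in co-culture (log2 fold change -3.22 ± 0.41, adjusted p = 4.4e-05). Apoe, an apolipoprotein gene, had 836.8, 1044 and 564.3 alone and 86.4, 137.1 and 176.7 in co-culture (log2 fold change -2.62 ± 0.27, adjusted p = 5.1e-06), and Cpt1a, the gate of mitochondrial fatty acid burning, 125.6, 91.8 and 117.6 alone and 34.9, 32.0 and 37.6 in co-culture. Scd1, a fatty acid desaturase, rose from 104.0, 101.9 and 141.4 to 199.3, 222.1 and 228.2. In all, 7 of 27 lipid genes fell and 4 rose, with 4 lower without co-culture replicate 2. Of 22 sterol genes 3 rose and 0 fell, or 5 rose without co-culture replicate 3. Over all genes 10.6% rose and 9.37% fell. Sc5d, a late cholesterol enzyme, had 64.4, 47.6 and 62.3 alone and 162.7, 238.8 and 225.4 in co-culture (log2 fold change 1.82 ± 0.21, adjusted p = 1.3e-05). At 5 days 12 of the 22 were higher than at 3 days and 0 lower, where 3.20% of all genes were higher and 3.71% lower. The 12 became 5 without replicate 1 at 5 days, 7 without replicate 2 or 3 at 5 days and 6 without replicate 2 at 3 days.

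Collagen genes fell more often than they rose, while those of type I collagen did not pass the test. Of 21 tested collagens 8 fell and 3 rose, with a median of -0.69. Col1a2 had 11026, 12991 and 12824 alone and 13225, 12029 and 14358 in co-culture, a difference of 0.10 (95% interval -0.31 to 0.52, adjusted p = 0.76), whose sign turned under quantile normalization. Col12a1, which decorates collagen fibrils, had 578.1, 475.9 and 618.3 alone and 176.0, 158.7 and 199.0 in co-culture (log2 fold change -1.64 ± 0.20, adjusted p = 2.7e-05), Col5a1, which nucleates fibrils, 1018, 1289.7 and 1198 alone and 571.2, 528.4 and 498.1 in co-culture, and Col6a1, a chain of beaded filaments, 458.0, 541.2 and 523.2 alone and 275.7, 300.0 and 194.8 in co-culture. Col5a3 and Col7a1, the latter the anchoring fibril collagen, rose from 142.3, 159.1 and 169.0 to 577.9, 520.0 and 509.2 and from 33.4, 17.3 and 41.1 to 146.1, 96.8 and 103.0. Among enzymes of collagen processing 6 of 23 fell and 1 rose. Pcolce, which enhances procollagen cleavage, had 2352, 2781 and 2521 alone and 954.8, 937.0 and 851.5 in co-culture (log2 fold change -1.48 ± 0.16, adjusted p = 7.1e-06), and Adamts2, a procollagen protease, 108.3, 112.0 and 99.6 alone and 16.6, 11.1 and 23.7 in co-culture (log2 fold change -2.63 ± 0.30, adjusted p = 1.5e-05). Its relative Adamts14 was the one that rose, from 10.5, 8.2 and 25.1 to 104.6, 51.5 and 55.7.

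Of 9 small leucine-rich proteoglycans 4 fell and 0 rose. Prelp had 938.9, 1299 and 654.3 alone and 56.5, 92.6 and 111.3 in co-culture (log2 fold change -3.46 ± 0.28, adjusted p = 3.9e-07), Podn 353.4, 464.8 and 354.8 alone and 46.5, 48.0 and 30.6 in co-culture and Podnl1 23.5, 16.3 and 19.3 alone and 6.6, 7.7 and 5.6 in co-culture, beside Fmod. Of the 18 elastic fibre genes 11 fell and 1 rose, with a median of -0.90, and the 1 was lost without monoculture replicate 2 or co-culture replicate 2 or 3. Eln, encoding elastin itself, had 27.9, 48.5 and 31.5 alone and 6.6, 3.5 and 4.2 in co-culture (log2 fold change -2.68 ± 0.35, adjusted p = 4.9e-05), Mfap2 and Mfap4, of the microfibrils, 381.2, 472.5 and 387.6 alone and 142.8, 170.5 and 150.3 in co-culture and 706.8, 818.1 and 727.6 alone and 139.5, 250.6 and 260.2 in co-culture, and Efemp1, a fibulin gene, 39.0, 51.4 and 30.2 alone and 6.6, 2.1 and 8.3 in co-culture. Mgp, the inhibitor of calcification, had 3675, 3354 and 5089.7 alone and 562.9, 459.4 and 710.9 in co-culture (log2 fold change -2.80 ± 0.20, adjusted p = 1.1e-07), and Tnxb, encoding tenascin X, 63.7, 57.2 and 31.5 alone and 6.6, 2.8 and 2.8 in co-culture. In none of these genes did the groups overlap, with co-culture below, as in 18.1% of all tested genes. Of 21 basement membrane genes 5 rose and 2 fell, or 1 without monoculture replicate 3. Of the 21, 3 averaged under 5 in monoculture and 3 averaged under 5 in 3-day co-culture. Lamb3, a laminin chain of epithelia, had 0, 1.0 and 0 alone and 39.9, 16.0 and 30.6 in co-culture, Lama1, another laminin chain, 3.1, 3.8 and 6.4 alone and 28.2, 32.7 and 23.7 in co-culture, and Agrn, a heparan sulfate proteoglycan, 81.1, 69.7 and 77.8 alone and 232.5, 284.7 and 276.9 in co-culture (log2 fold change 1.78 ± 0.17, adjusted p = 2.4e-06). The luminal markers stood at 1214.2 to 1377.4 units in the same co-culture libraries, and their part in the laminin values was not tested.

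**Figure D4:**
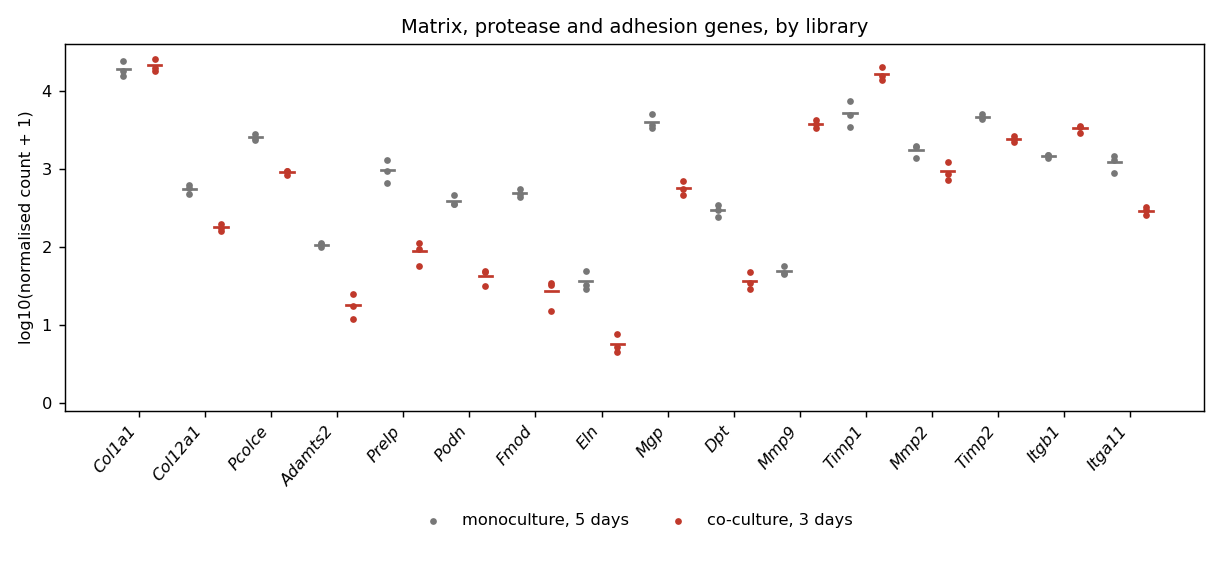
Normalised counts (log10 axis of value + 1) of 16 matrix, protease and adhesion genes in each library, 3 points per group with a bar at the mean, monoculture in grey and 3-day co-culture in red. Prelp, Podn, Fmod, Eln and Mgp are lower in all 3 co-culture libraries, Mmp9, Timp1 and Itgb1 are higher, and the Col1a1 points of the groups overlap.

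Proteases and their inhibitors moved in both directions. Besides Mmp9, the stromelysin gene Mmp10 rose by 1.73 on the log2 scale, and Timp1, an inhibitor of these proteases, rose from 3488, 4888 and 7434 to 14019, 15830.5 and 20221 (log2 fold change 1.72 ± 0.27, adjusted p = 0.00029). Mmp2, gelatinase A, and its regulator Timp2 fell from 1987, 1916 and 1370.3 to 870.2, 1220.3 and 722.1 and from 5168, 4331 and 4597 to 2260.1, 2430.2 and 2692. Of 21 ADAMTS and ADAM genes 6 fell and 3 rose. Adamts4, an aggrecanase, rose from 58.8, 48.5 and 48.8 to 152.8, 171.2 and 212.9 (log2 fold change 1.75 ± 0.21, adjusted p = 2.4e-05), while Adamts15 and Adamts1 had 27.9, 27.9 and 13.5 alone and 1.7, 1.4 and 2.8 in co-culture and 230.2, 249.0 and 204.4 alone and 127.9, 84.9 and 119.6 in co-culture. The protease inhibitor gene Serpina3n fell from 469.7, 746.0 and 323.9 to 31.6, 36.2 and 40.3 (log2 fold change -3.72 ± 0.30, adjusted p = 3.9e-07) and Serpinb1a, an inhibitor of neutrophil proteases, from 48.3, 152.9 and 54.6 to 6.6, 7.7 and 7.0. Among hyaluronan genes 5 of 12 rose and 1 fell, or 2 without co-culture replicate 1. The hyaluronan receptor gene Cd44 had 141.7, 132.7 and 257.7 alone and 347.1, 295.9 and 349.2 in co-culture, and Tnfaip6, which transfers heavy chains to hyaluronan, 11.1, 21.1 and 10.9 alone and 33.2, 52.9 and 43.1 in co-culture.

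Integrins, the matrix receptors, rose more often than they fell: 8 of 15 rose and 4 fell, with 5 higher without monoculture replicate 3 or co-culture replicate 1. Itgb1, the shared beta chain, had 1377, 1523 and 1509 alone and 3584, 3505 and 2930.0 in co-culture (log2 fold change 1.18 ± 0.17, adjusted p = 0.0001), and Itga3, a laminin receptor chain, 11.1, 11.1 and 22.5 alone and 93.0, 42.5 and 62.6 in co-culture. Itga11, the collagen-binding chain of fibroblasts, fell from 1467, 1319 and 895.3 to 302.2, 254.8 and 321.4 (log2 fold change -2.04 ± 0.20, adjusted p = 2.5e-06), and Itga8 fell from 77.4, 43.3 and 75.8 to 11.6, 25.8 and 26.4. Of 32 contractile genes 7 rose and 3 fell. Cnn1 and Cald1, which regulate actomyosin, had 439.4, 196.1 and 336.1 alone and 870.2, 722.6 and 692.9 in co-culture and 584.9, 882.5 and 687.1 alone and 1265, 1550.3 and 1977 in co-culture, and Tagln2 1264, 988.3 and 1178 alone and 2313, 2621 and 2108 in co-culture. Acta2, the smooth muscle actin gene used to recognise myofibroblasts, had 94.7, 75.5 and 78.4 alone and 66.4, 37.6 and 73.7 in co-culture, a difference of -0.53 (95% interval -1.09 to 0.04) that did not pass.

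Growth factor genes changed in both directions, 13 of 31 ligands higher and 7 lower. Inhba, which encodes the activin A subunit, had 1338, 908.0 and 1956 alone and 8456, 5534 and 8157 in co-culture (log2 fold change 2.44 ± 0.26, adjusted p = 6.4e-06), Ctgf, the older symbol of a CCN family gene, 1248, 1466 and 1149.8 alone and 7222, 4389.7 and 6396 in co-culture (log2 fold change 2.20 ± 0.21, adjusted p = 2.0e-06), and Fgf18 46.4, 35.6 and 36.0 alone and 136.2, 137.1 and 146.1 in co-culture. Tgfb1 and Tgfb2 rose from 160.3, 94.7 and 118.3 to 391.9, 311.2 and 243.5 and from 17.3, 11.5 and 10.3 to 46.5, 46.6 and 50.1. Of their receptors, Tgfbr2 fell from 342.9, 484.0 and 372.1 to 172.7, 174.7 and 222.6. The co-receptor Tgfbr3 fell from 416.5, 475.9 and 398.5 to 126.2, 178.2 and 168.3. In the transforming growth factor beta and activin pathway as a whole 7 of 28 tested genes rose and 4 fell. Gas6, the ligand of the receptor AXL, fell from 4545, 3618 and 3371 to 651.0, 775.5 and 756.9 (log2 fold change -2.39 ± 0.21, adjusted p = 9.0e-07), while Axl rose from 851.0, 1151 and 1360.0 to 2195, 2319.5 and 2094. Mdk, the growth factor midkine, fell from 334.8, 437.9 and 251.3 to 53.1, 64.7 and 44.5. Genes of bone morphogenetic protein signalling fell more often than they rose: 9 of 17 were lower and 1 higher, with a median of -0.88, and the 1 was lost without monoculture replicate 2. Id1, a direct target of that pathway, had 1341, 1536 and 1732 alone and 156.1, 172.6 and 187.8 in co-culture (log2 fold change -3.15 ± 0.18, adjusted p = 9.4e-09), Id3 4261, 4366 and 3991 alone and 1388, 1827 and 1894 in co-culture, Id2 121.3, 146.6 and 165.2 alone and 68.1, 57.1 and 69.6 in co-culture, and the inhibitory Smad6 87.3, 97.1 and 63.6 alone and 19.9, 18.8 and 26.4 in co-culture. Each Id gene was separated between the groups, with co-culture below, as in 18.1% of all tested genes.

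In the Wnt pathway 10 of 38 genes fell and 7 rose. Of the 38, 6 averaged under 5 in monoculture, among them Wnt7b, Wnt11 and Wnt2, so they passed the filter through the co-cultures. The ligands Wnt7b, Wnt11 and Wnt2 rose from 1.2, 0.5 and 0.6 to 31.6, 22.3 and 43.1, from 1.9, 1.0 and 4.5 to 43.2, 16.7 and 33.4 and from 7.4, 2.9 and 4.5 to 36.5, 27.1 and 29.2. The antagonist Sfrp1 fell from 4711, 6672 and 4498 to 544.7, 1135 and 1123 (log2 fold change -2.56 ± 0.33, adjusted p = 4.6e-05) and the receptor Fzd2 from 199.9, 213.4 and 187.0 to 56.5, 36.9 and 44.5. Hes1, a Notch target, had 1129, 1489.6 and 1147 alone and 450.0, 357.1 and 327.0 in co-culture (log2 fold change -1.73 ± 0.18, adjusted p = 7.1e-06), whereas Rbpj, the DNA-binding partner of Notch, rose from 64.4, 100.9 and 101.5 to 245.8, 176.8 and 246.3. The Notch list as a whole had 2 of 15 higher and 2 lower, with 1 higher without monoculture replicate 2 or 3 or co-culture replicate 2 or 3, and 1 lower without any 1 monoculture library. Of the insulin-like growth factor binding proteins, Igfbp4 fell from 1113, 1945 and 885.7 to 267.4, 261.7 and 214.3 (log2 fold change -2.33 ± 0.23, adjusted p = 3.6e-06) and Igfbp3 from 299.5, 583.5 and 387.6 to 126.2, 177.5 and 122.4, while Igfbp7 rose from 7777, 7428 and 7564 to 15360.5, 17422 and 22451. Of the 31 axon guidance genes 11 fell and 0 rose, with 7 lower without monoculture replicate 2, monoculture replicate 3 or co-culture replicate 2. Sema3f had 53.8, 64.4 and 102.2 alone and 29.9, 29.2 and 18.1 in co-culture and Slit2 96.5, 138.9 and 90.6 alone and 31.6, 31.3 and 73.7 in co-culture. Of the 21 retinoid genes 9 rose and 3 fell, and 3 of the 21 averaged under 5 in monoculture. Beside Stra6, the retinoic acid-binding proteins Crabp2 and Crabp1 had 16.7, 18.7 and 15.4 alone and 192.6, 135.0 and 97.4 in co-culture and 22.3, 19.2 and 100.3 alone and 451.7, 523.5 and 562.1 in co-culture (log2 fold change of Crabp1 3.82, or 4.56 without monoculture replicate 3), and the receptor Rarb 3.7, 3.8 and 7.7 alone and 46.5, 41.1 and 23.7 in co-culture. Aldh1a1, a retinoic acid-making enzyme, fell from 53.8, 59.1 and 56.6 to 6.6, 9.7 and 7.0.

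Most listed genes of progenitor cells and universal fibroblasts fell. Of 27 tested progenitor and universal fibroblast markers 18 fell and 4 rose, with a median of -1.15, and 2 rose without monoculture replicate 2 or co-culture replicate 3. Dpt, encoding dermatopontin, had 245.1, 345.6 and 302.1 alone and 33.2, 46.6 and 27.8 in co-culture (log2 fold change -3.04 ± 0.25, adjusted p = 5.6e-07), and Cygb, a stellate and fibroblast globin, 1719, 1249 and 890.2 alone and 224.2, 178.2 and 144.7 in co-culture (log2 fold change -2.78 ± 0.23, adjusted p = 5.1e-07). The surface antigen genes Ly6a and Ly6c1 had 641.8, 1253 and 617.7 alone and 91.3, 123.2 and 100.2 in co-culture and 101.5, 147.1 and 63.0 alone and 10.0, 9.7 and 7.0 in co-culture. Of 43 mesenchymal transcription factors 14 fell and 2 rose, or 9 lower without monoculture replicate 2. Osr1 had 217.2, 215.3 and 175.5 alone and 61.4, 27.8 and 34.8 in co-culture (log2 fold change -2.34 ± 0.27, adjusted p = 1.5e-05), Ebf1 117.0, 88.9 and 63.6 alone and 26.6, 34.8 and 19.5 in co-culture, Prrx2 266.7, 277.4 and 251.9 alone and 107.9, 133.7 and 144.7 in co-culture and Nfia 37.8, 31.7 and 36.6 alone and 3.3, 11.1 and 4.2 in co-culture. Meox1 rose from 4.3, 4.3 and 9.0 to 23.2, 26.5 and 45.9. Genes used as markers of cancer-associated fibroblasts were divided, 8 of 28 higher and 9 lower. The series title links RUNX1 with such fibroblasts. Runx1 had 162.2, 206.2 and 107.3 alone and 96.3, 123.9 and 129.4 in co-culture, a difference of -0.40 (95% interval -0.89 to 0.08, adjusted p = 0.24). Runx2 had 61.3, 81.2 and 63.0 alone and 81.4, 73.8 and 57.0 in co-culture and their partner Cbfb 35.9, 89.9 and 49.5 alone and 24.9, 34.8 and 59.8 in co-culture, and neither passed.

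Several cell-cycle inhibitor genes rose. Of 28 p53 targets and cell-cycle inhibitors 9 rose and 3 fell, and 5 fell without monoculture replicate 3. Gadd45a, a growth arrest gene, had 172.1, 183.6 and 133.7 alone and 1084, 1039 and 992.0 in co-culture (log2 fold change 2.67 ± 0.19, adjusted p = 9.6e-08), Cdkn2b, an inhibitor of cyclin D kinases, 123.2, 95.7 and 104.8 alone and 328.8, 315.3 and 498.1 in co-culture, and Cdkn1a, encoding p21, 1671, 1427 and 1469 alone and 3291, 2502 and 2884 in co-culture. Gas1, a growth arrest-specific surface protein, fell from 406.0, 310.5 and 280.9 to 76.4, 133.7 and 111.3. Of 29 DNA replication genes 4 fell and 0 rose, where 9.37% of all genes fell and 10.6% rose. The 4 became 2 without monoculture replicate 3 or co-culture replicate 2. Rrm2, a ribonucleotide reductase subunit, had 65.0, 103.8 and 91.3 alone and 34.9, 19.5 and 27.8 in co-culture (log2 fold change -1.64 ± 0.27, adjusted p = 0.00051), and Mcm3 63.1, 60.6 and 102.2 alone and 44.8, 32.0 and 23.7 in co-culture. Of 28 mitosis genes 1 was lower and 0 higher, with 0 lower without monoculture replicate 3 or co-culture replicate 3, 2 lower without co-culture replicate 2 and 1 higher without monoculture replicate 3.

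Against the 5-day co-culture, the 3-day co-culture stood apart in 735 genes (6.91%), of which 395 were lower and 340 higher at 5 days. These counts fell to 179 lower and 144 higher without replicate 2 at 3 days, and to 259 lower and 199 higher without replicate 3, 174 higher without replicate 1 and 148 higher without replicate 2 at 5 days. Several inflammatory genes were lower at 5 than at 3 days. Csf2 had 1.8, 4.7 and 0 at 5 days (-4.67 ± 0.61, adjusted p = 0.00025 for 5 minus 3 days, from -5.26 without replicate 2 at 5 days to -4.01 without replicate 3 at 5 days), Cxcl2 21.6, 70.8 and 41.2 (-2.76 ± 0.38, adjusted p = 0.00036), Cxcl3 9.9, 12.1 and 13.7 (-2.69 ± 0.40, adjusted p = 0.00079) and Saa3 404.3, 1286 and 1371 (-3.62 ± 0.46, adjusted p = 0.00022). Of 17 chemokines 7 were lower at 5 days and 0 higher, and of 18 complement and acute-phase genes 8 and 0, with 4 lower without replicate 2 at 3 or at 5 days and 5 without replicate 1 at 5 days. Krt23, a keratin gene, had 1.2, 1.0 and 1.3 alone, 11.6, 24.4 and 11.1 at 3 days and 0, 0 and 1.2 at 5 days of co-culture. Among matrix genes, Abi3bp, which encodes a matrix-binding protein, had 82.9, 288.4 and 126.6 alone and 11.6, 15.3 and 23.7 at 3 days. It was lower still at 5 days, with 0.9, 3.7 and 0 (-3.05 ± 0.52, adjusted p = 0.0024, or -3.64 without replicate 2 at 5 days). Others were higher at 5 than at 3 days. Nrep had 13.0, 15.4 and 17.4 alone and 3.3, 3.5 and 5.6 in co-culture and 50.3, 59.6 and 39.9 at 5 days (3.32 ± 0.32, adjusted p = 5.8e-05), and Vim had 12833, 11419 and 8870.1 at 5 days (1.18 ± 0.19, adjusted p = 0.0015). Car2, carbonic anhydrase 2, had 2.5, 2.9 and 5.8 alone and 39.9, 27.8 and 55.7 at 3 days. It was higher still at 5 days, with 177.0, 148.1 and 176.0 (2.05 ± 0.31, adjusted p = 0.001).

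**Figure D5:**
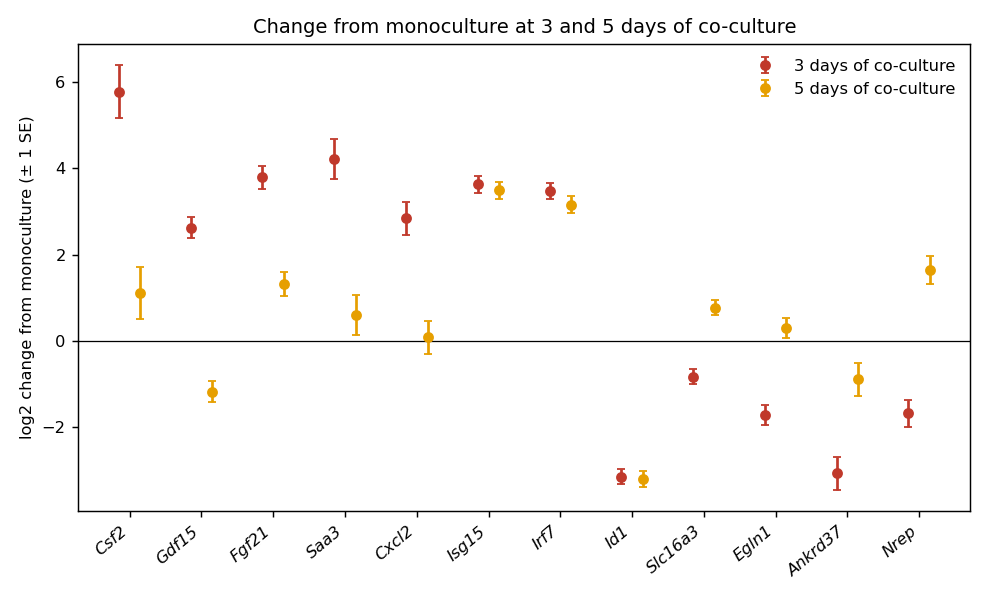
Mean log2 change from monoculture (3 libraries) at 3 and at 5 days of co-culture for 12 genes, on a log2(value + 1) scale with bars of 1 SE from the model. Gdf15, Fgf21, Csf2, Saa3 and Cxcl2 are higher at 3 than at 5 days, Egln1, Ankrd37, Slc16a3 and Nrep are lower at 3 than at 5 days, and Isg15, Irf7 and Id1 stay within 0.5 of their 3-day value.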

How the data were processed

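Mouse mammary fibroblasts were profiled with 3′ end mRNA libraries, in 3 groups of 3 replicates. Per the submitters' processing notes, reads were processed with bcl2fastq, STAR 2.4.2a and HTSeq on mm10; the annotation, strand setting, gene filter and scaling are not given in the sources used here. The values are a signal deposited by the authors, namely gene counts divided by a factor per library and rounded, and 0 of its 11931 genes were mitochondrial. Each library's values are whole multiples of the value of 1 read (99.98% to 100% of values within 0.051 of a whole read), and the reads recovered this way served as depth and as input for count tests. Groups were taken from the labels. The column used for replicate 2 of the 5-day co-culture carries no mention of carcinoma cells in its name, which matched no other sample.

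A gene was kept where 3 or more libraries reached a value of 5. A gene near 0 in 1 group could thus be tested because of its level in another group. Values were tested as log2(value + 1) with limma 3.58.1 (empirical Bayes with a trend, R 4.3.3) over all 9 libraries, for 3-day co-culture against monoculture and for 5 against 3 days of co-culture. Benjamini-Hochberg adjustment ran over all tested genes with a threshold of 0.05. The pseudocount of 1 understates the fold of low genes. edgeR 4.0.16 (quasi-likelihood, TMM) on the recovered reads called 1157 genes higher and 1082 lower, and DESeq2 1.42.0 called 1080 and 969. Other alternatives changed the pseudocount (0.5 or 5), the filter (none, or a mean of at least 20), the scaling (TMM, median of ratios, quantile), the replicate block, the groups fitted and the libraries included. For genes with few or 0 reads, ratios use a floor of 3 reads over the group or exact 95% Clopper-Pearson limits, which cover counting error only. Nothing in the labels says that replicates came from separate mice or cultures, so p-values measure the spread between these samples, which may be technical. The scripts were tested on simulated data.

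The 64 gene lists and 11 marker lists, and the comparison itself, were chosen with earlier results of these data known. Genes to be named were the 15 largest rises and the 15 largest falls (called, mean of 10 or more, groups not overlapping), the 6 called genes with the smallest adjusted p in every list (with its highest member where under 2 were called), the 3 highest in every marker list, 9 fixed genes, and the 10 largest rises and falls from 3 to 5 days. This gave 374 genes, of which 369 matched a position. The text leaves out 132 of them, nearly all chosen after their values were seen and some not reported here for other reasons, among them 52 called genes whose call changed under an alternative, so the named genes are steadier than the rule's genes as a whole. A symbol in the table was matched to promoters by name only, and 18 symbols were converted to dates in the deposited table and were not matched.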

Additional observations from a re-analysis of the deposited data

Results flagged for a closer look

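The change from monoculture differed between 3 and 5 days of co-culture, by the test of 5 minus 3 days itself (limma, adjusted over all 10639 genes), by at least 2 on the log2 scale in 19 named genes. Both changes are measured from the same monocultures. Lower at 5 than at 3 days were the cytokine, chemokine and acute-phase genes Csf2 (-4.67), Cxcl2 (-2.76), Cxcl3 (-2.69), Tslp (-2.07) and Saa3 (-3.62). The call for Csf2 held in all settings, with -5.26 without replicate 2 and -4.01 without replicate 3 at 5 days. The same direction was seen in the ATF4 genes Gdf15 (-3.80) and Fgf21 (-2.47) and in the amino acid carriers Slc7a3 (-2.30) and Slc6a9 (-2.12). Also lower were the matrix genes Abi3bp (-3.05, or -3.64 without replicate 2 at 5 days) and Podn (-2.28), the surface antigen gene Ly6a (-2.00), the retinoid carrier gene Crabp1 (-2.39) and the keratin gene Krt23 (-3.59, a call lost with DESeq2). Higher at 5 days were the hypoxia genes Egln1 (2.01) and Ankrd37 (2.18), Car2 (2.05), Nrep (3.32) and Gfra1 (2.91, or 3.64 without replicate 2 at 3 days). Groups of 3 were not tested for single outlying libraries.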

How the results depend on the processing

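The 3-day comparison gave 1132 genes higher and 997 lower, and all its alternatives stayed within 1.5 times of these counts, from 851 to 1168 higher and 786 to 1082 lower with all libraries and from 858 to 1111 higher and 676 to 1004 lower with 1 library left out. The comparison of 5 with 3 days was more fragile: 340 higher and 395 lower became 144 to 328 and 179 to 365 when single libraries were left out. Replicate numbers were not used to pair samples in the main test. The correlations of same-numbered deviations between 3-day co-culture and monoculture were 0.125, -0.114 and 0.049. Those of differently numbered deviations ran from -0.298 to 0.283. With 3 libraries per group, these values cannot decide whether same-numbered samples belong together. With the replicate block the 3-day counts were 1168 higher and 1051 lower, and the 5-day counts 383 and 444. Of 233 called genes named in the text, 230 kept direction and call in those of the 17 alternatives that tested them (21 were not tested with a mean of at least 20), 3 (Ube2l6, Des and Camp) lost it and 0 reversed, but genes were left out of the text in part for losing a call: of 353 called genes of the naming rule, 55 had another call in at least 1 alternative. Signs turned for uncalled genes only: Col1a2 (0.10) was -0.22 under quantile normalization, Notch3 (0.25) ranged from -0.02 without monoculture replicate 2 to 0.40 without monoculture replicate 1, and Runx2 (0.04) from -0.07 without co-culture replicate 1 to 0.19 without co-culture replicate 3, with -0.03 and -0.01 without monoculture replicate 1 or 3. Among gene lists, requiring a mean of at least 20 left 8 of 14 luminal markers higher, 5 of 8 integrins higher, and 5 of 11 axon guidance, 6 of 10 Wnt, 8 of 14 mesenchymal factor, 3 of 6 ADAMTS and ADAM, 4 of 7 cadherin and junction and 3 of 5 tumour necrosis factor superfamily genes lower, because fewer genes were tested. The 4 cytosolic ribosomal protein genes called higher became 1 under quantile normalization and 8 with DESeq2. Every rescaling moved the median of all genes by under 0.1. The shallowest library was replicate 1 of the 3-day co-culture, with 1048471 reads, where 1 read is worth 1.66 units.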
